A study of Rattus norvegicus with 4 samples.

Results

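The proteasome genes of S16 cells, an immortalized line of rat Schwann cells, were followed through 4 RNA-Seq libraries. A gene was taken as a member when its symbol began with Psma to Psmg followed by a digit, and Psmb8, Psmb9 and Psmb10 were left out because they encode the subunits of the immunoproteasome. This gave 46 genes of 30708 listed. They comprised 14 constitutive subunits of the core particle, 17 subunits of the regulatory particle, 3 assembly factors of the regulatory particle, 4 activators, 1 inhibitor, 4 chaperones of core assembly, the tissue-restricted core genes Psma8 and Psmb11, and Psmc3ip. The last of these matches the symbol rule but encodes a recombination protein and no proteasome subunit. The subunits Adrm1 and Shfm1 belong to the regulatory particle without matching the rule and are described with the related genes. A mean of at least 1 RPKM (the reads of a gene per 1000000 reads of the library and per kilobase of the gene's length) was reached by 44 of the 46 genes and by 11025 genes in all.

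The cells were unmodified, which means that they carried no deletion of the rSOX-4 enhancer, and they came from 2 populations. One was at passage 9 and was the parental line of the rSOX-4 mutants, and the other was an older population at passage 39. Each population gave 2 libraries that the labels call technical replicates, numbered 1 and 2. The label names the source as myelinating Schwann cells, but the cells are a cultured line grown in flasks, and mutant or clonal S16 lines were not analysed here. With 1 population per passage, the passage cannot be told apart from any other difference between the populations, and no test between passages was possible.

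The libraries rested on totals of 34246093 to 41382234 reads, recovered from the RPKM values themselves. The study's methods give a much lower approximate number of reads per cell line, and this gap was not resolved. The chi-square values, reads and counting intervals given here hold only as far as the recovered totals do. Libraries with the same number stood together across the passages and apart from the library labelled as their own technical replicate. Over all genes with at least 20 reads in a pair, the mean chi-square of a gene's reads, which is 1 under sampling noise alone, was 1.12 between the number 1 libraries and 1.36 between the number 2 libraries. It was 64.9 between the libraries of passage 9 and 62.2 between those of passage 39. For the 44 proteasome genes these values were 1.30 and 1.51 within a number, against 195 and 175 within a passage. The replicate labels were used as given. Whether the numbers or the passages mark the cells, the libraries or the runs, and whether the labels were crossed, was not tested. All 9 Schwann cell markers examined, Sox10 and Pmp22 among them, had a mean of at least 1 RPKM, and their summed level was 1970 RPKM in the number 1 libraries and 1900 RPKM in the number 2 libraries. Of the markers of other cells, 2 of 6 for fibroblasts, 2 of 6 for neurons and 1 of 5 for macrophages reached 1 RPKM. The fibroblast sum of 3350 to 3880 RPKM was nearly all Col1a1, while Thy1 was listed at 0. The neuron sum was 136 to 165 RPKM, with Syt1 and Stmn2 listed at 0, and the macrophage sum was 1.48 to 1.62 RPKM, with Ptprc and Itgam listed at 0.

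The proteasome degrades proteins tagged with ubiquitin. Its core particle is a barrel of stacked rings, in which the alpha subunits (the Psma genes) form the outer rings that gate the entrance and the beta subunits (the Psmb genes) form the inner rings that carry the catalytic sites. The regulatory particle caps the barrel: its base holds a ring of ATPases (the Psmc genes) that unfold the substrate, and its lid (most of the Psmd genes) removes the ubiquitin chain. The subunits are needed in fixed proportion, and in mammalian cells the transcription factor Nfe2l1 raises many of their genes together when proteasome activity falls. In Schwann cells the proteasome is known for clearing misfolded myelin proteins such as Pmp22.

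Proteasome genes were among the more highly expressed genes of S16 cells. The median over the 44 genes was 74.5 RPKM, above 92.1% of the genes tested, whose own median was 11.1 RPKM. Of these genes, 28 had a mean over 50 RPKM. As RPKM is scaled by length, levels of different subunits can be set side by side only as far as the gene lengths used hold, and these are not given. Recovered from the values, the length was 2297 bases for Psma3, lowest of the alpha ring, against a list median of 1047. It was 5340 for Psmd11, lowest of the lid, against 1520, but 773 for Psmb6, lowest of the beta ring, against 842. The part of length in these levels was not tested. The values below are in the order passage 9 number 1, passage 9 number 2, passage 39 number 1 and passage 39 number 2, and the ± values are the SD over the means of the 2 populations, n = 2. Each of these means holds 1 library of each number, so the SD leaves out the difference between the numbers. In reads, the 44 genes ranged from 114 reads for Psme2 in one library to 18968 reads for Psmd2 in another.

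In the core particle, the levels spread 28.3-fold. Psmb4, a structural beta subunit, was the highest at 265, 372, 271 and 364 RPKM (318 ± 0.500) and ranked 103 among all genes. The highest alpha subunit was Psma7, at 181, 280, 183 and 273 RPKM (229 ± 1.64). In both genes the number 2 libraries lay above the number 1 libraries, with no overlap. The lowest core subunit was Psma3, at 10.3, 12.8, 9.57 and 12.4 RPKM (11.2 ± 0.402), although the alpha rings hold it in the same copy number as the other alpha subunits. The lowest beta subunit was Psmb6, at 13.9, 17.4, 12.7 and 17.6 RPKM (15.4 ± 0.359).

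Psmb6 is also 1 of the 3 catalytic subunits, the one with caspase-like activity, and its transcript was listed far below those of the other two. Psmb5, which carries the chymotrypsin-like site, was at 173, 234, 172 and 220 RPKM (200 ± 5.03). Psmb7, which carries the trypsin-like site, was at 118, 165, 119 and 167 RPKM (142 ± 1.23). The authors counted uniquely mapped reads, so a gene with near-identical copies elsewhere in the genome can be undercounted. RefSeq names 2 pseudogenes of Psma3, and 2 pseudogenes and 1 related gene of Psmb6, so the low values of both genes are uncertain. Psmb3 has 10 named copies and stood at 67.5 RPKM, and Psma7 has 3 and stood at 229 RPKM. Copies were counted by name alone, and their sequences were not compared with those of the genes. The part of undercounting in any of these levels was not tested. In the core particle, 9 of 14 genes had a named copy, and the median was 101 RPKM with and without one. In the regulatory particle it was 72.1 RPKM for the 6 genes with a named copy and 97.4 RPKM for the rest.

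The regulatory particle was more even in the listed values, with a 6.35-fold spread. The core values, in the spread and in the variation given below, include Psma3 and Psmb6, whose low levels are uncertain. No spread without them was taken. Of the 6 ATPases, Psmc2 was the highest at 136, 168, 133 and 170 RPKM (152 ± 0.393) and Psmc6 the lowest at 63.0, 85.6, 61.2 and 85.7 RPKM (73.9 ± 0.616), a 2.05-fold spread. The other base subunits ran from Psmd2, a scaffold that docks ubiquitin shuttles, at 113, 149, 111 and 150 RPKM (131 ± 0.105), to Psmd1, its companion scaffold, at 64.1, 77.2, 64.0 and 76.2 RPKM (70.4 ± 0.404). In the lid, the highest was Psmd13 at 90.6, 114, 85.6 and 115 RPKM (101 ± 1.37) and the lowest Psmd11 at 20.7, 27.2, 20.5 and 27.2 RPKM (23.9 ± 0.0586). Within each library the coefficient of variation over subunits was 69.8 to 71.9% in the core particle and 34.2 to 35.7% in the regulatory particle.

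**Figure D1:**
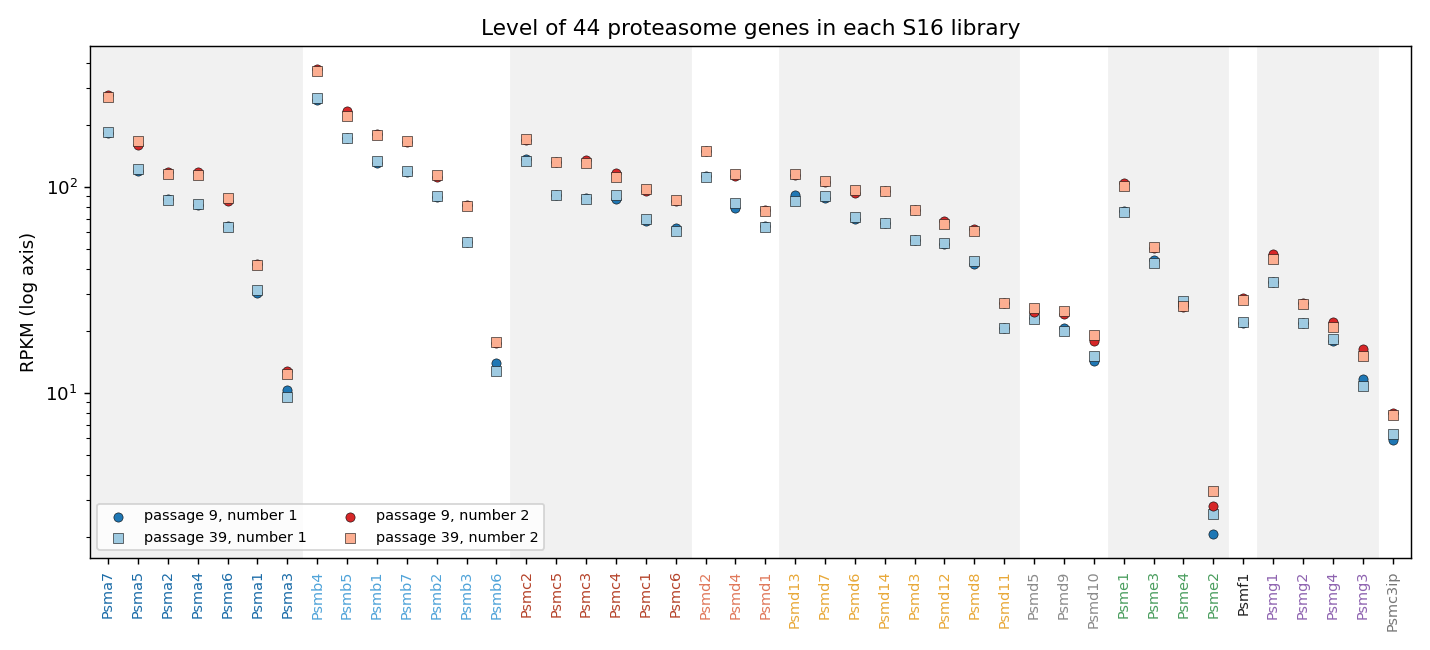
RPKM on a log axis of the 44 proteasome genes whose mean reached 1 RPKM, ordered by role and then by level; the shaded bands separate roles. Circles are passage 9 and squares passage 39, in blue for number 1 and in red for number 2 libraries. The 2 blue and the 2 red symbols of a gene nearly coincide, and the red pair lies above the blue pair in every gene but Psme4.

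The median regulatory subunit stood at 0.793, 0.812, 0.811 and 0.851 of the median core subunit in the 4 libraries, or 0.817 ± 0.0202 of it over the populations. In RPKM these medians were 88.0, 118, 87.8 and 115 for the core and 69.8, 95.7, 71.2 and 97.9 for the regulatory particle. With means in place of medians the ratio was 0.728. The ratio was thus below 1 in 4 of 4 libraries, but 9 of 14 core subunits, in each library, lay above the regulatory median, so the 2 sets of subunits overlapped widely. By ring and subcomplex, the beta ring was highest with a median subunit of 142 RPKM, followed by the ATPases at 106 RPKM, the alpha ring at 99.1 RPKM and the lid at 73.6 RPKM. This order was the same in all 4 libraries.

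**Figure D2:**
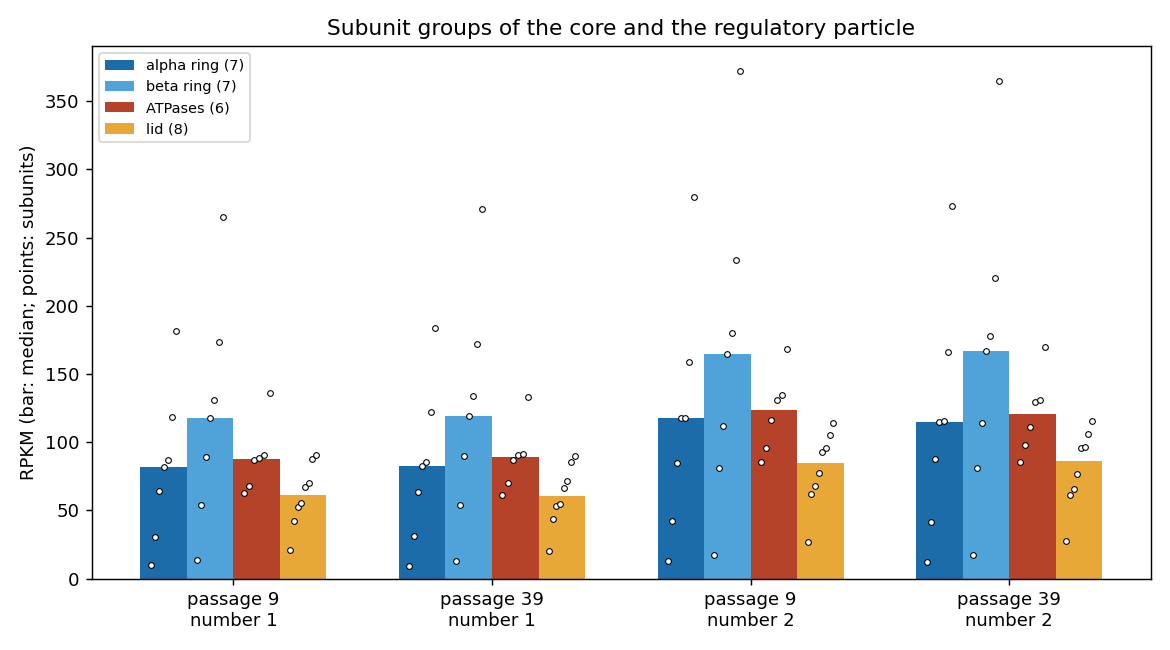
Median RPKM of the subunits (bars, axis from 0) of the alpha ring, the beta ring, the ATPases and the lid in each library, with each subunit as a point; the 3 other base subunits are not drawn. The bars keep the same order in all 4 libraries and are higher in the number 2 libraries, where the beta ring reaches 165 and 167 RPKM against 118 and 119 RPKM in the number 1 libraries.

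The genes around the complex were lower. The chaperones of the regulatory particle base, Psmd5, Psmd9 and Psmd10, had means of 24.1, 22.4 and 16.5 RPKM. Psmd5 was at 23.1, 24.7, 22.9 and 25.7 RPKM and Psmd10 at 14.2, 17.8, 15.01 and 19.0 RPKM. The 4 chaperones that assemble the core ranged from Psmg1, at 34.5, 47.3, 34.4 and 44.7 RPKM (40.2 ± 0.958), to Psmg3, at 11.6, 16.3, 10.8 and 15.1 RPKM (13.4 ± 0.707). Psmf1, an inhibitor of the core, was at 21.9, 28.9, 21.9 and 28.1 RPKM (25.2 ± 0.252). Psmc3ip, the recombination gene, was at 5.87, 7.99, 6.32 and 7.83 RPKM.

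The activators, which open the core in place of the regulatory particle, differed widely among themselves. Psme1 and Psme2 encode the alternating subunits of one interferon-inducible ring, yet Psme1 was at 76.0, 105, 75.1 and 101 RPKM (89.2 ± 1.58) and Psme2 at 2.05, 2.80, 2.59 and 3.32 RPKM (2.69 ± 0.372). Psme2 rested on 114, 132, 119 and 183 reads, and RefSeq names 3 pseudogenes of it, so its level too is uncertain. Psme3, the subunit of a nuclear activator, was at 44.2, 50.3, 42.6 and 51.1 RPKM. Psme4, a large single-chain activator, was at 27.7, 26.2, 27.9 and 26.3 RPKM, which made it the one proteasome gene whose number 2 libraries lay below its number 1 libraries. Of the tissue-restricted genes, Psma8, known from testis, was listed at 0.0263 RPKM in passage 9 number 1 and at 0 in the other libraries. Psmb11, known from the cortical epithelium of the thymus, had 5, 4, 4 and 5 reads.

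The immunoproteasome subunits that the symbol rule left out replace the 3 catalytic subunits after interferon signalling, and they were listed low beside Psmb5 and Psmb7. Psmb8 was at 0.619, 1.51, 0.493 and 1.30 RPKM and fell short of the mean of 1 RPKM that the test required. Psmb9 was at 9.79, 11.1, 9.63 and 10.8 RPKM, and Psmb10 at 22.3, 23.4, 21.5 and 23.3 RPKM. Psmb10 thus lay above Psmb6, the subunit of the uncertain count, in every library.

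The promoters of several members are shown because proteasome genes are known targets of Nfe2l1 and Nfe2l2, which bind antioxidant response elements. The letters TGACNNNGC (GCNNNGTCA on the other strand), the core of this element, and CCAAT, a common promoter box that reads ATTGG on the other strand, were searched on both strands in the 250 bases before the start of each gene in RefSeq on GRCr8. A promoter was matched for 41 of the 46 genes. Below are bases -130 to -1 before the start, on the strand of the gene, with the matches in capitals. They include Psmb2, in which a CCAAT box overlaps the element's letters by 1 base, the catalytic Psmb5 and Psmb6, Psma5 with a pair of CCAAT boxes, and Psme4, which is no subunit of the core or the regulatory particle.
Psmb2 (chr5:144254928-144255057, plus strand): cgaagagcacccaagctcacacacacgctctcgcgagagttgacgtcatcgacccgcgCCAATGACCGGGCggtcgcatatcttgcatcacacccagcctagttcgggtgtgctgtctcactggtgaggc
Psmb5 (chr15:32047380-32047509, minus strand): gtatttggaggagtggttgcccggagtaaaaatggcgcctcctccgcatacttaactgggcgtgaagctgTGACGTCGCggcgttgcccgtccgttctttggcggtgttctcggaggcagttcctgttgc
Psmb6 (chr10:55737758-55737887, plus strand): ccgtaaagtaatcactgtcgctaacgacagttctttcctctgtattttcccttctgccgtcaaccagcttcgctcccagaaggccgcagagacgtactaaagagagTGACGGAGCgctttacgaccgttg
Psma5 (chr2:198584375-198584504, plus strand): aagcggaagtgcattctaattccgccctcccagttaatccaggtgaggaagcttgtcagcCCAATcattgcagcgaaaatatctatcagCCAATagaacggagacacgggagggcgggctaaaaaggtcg
Psme4 (chr14:108706513-108706642, plus strand): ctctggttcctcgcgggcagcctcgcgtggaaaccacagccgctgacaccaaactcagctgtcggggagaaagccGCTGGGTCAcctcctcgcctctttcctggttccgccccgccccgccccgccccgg

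The element's letters occurred in 7 of the 41 promoters (17.1%), against 10.2% of all 27457 promoters and 13.1% of the 7751 promoters of genes that passed the minimum of 1 RPKM. They were found in Psma3, Psmb2, Psmb5 and Psmb6 of the 13 core genes matched, in Psmd1 of the 14 regulatory genes matched, and in Psmd9 and Psme4. CCAAT occurred in 20 of the 41 promoters (48.8%), against 34.3% of all promoters and 36.3% of those of genes past this minimum. It stood in 9 of 13 core promoters (69.2%) and in 5 of 14 regulatory promoters (35.7%). Neither set of letters was found in 17 of the 41 promoters. A match is a description of the letters and not of a bound site, and the letters were not read as a cause of any level.

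Between the number 2 and the number 1 libraries, proteasome genes stood higher nearly throughout. On the log2(RPKM + 1) scale, the limma test over all 11025 genes, 2 libraries against 2 with a Benjamini-Hochberg adjusted p under 0.05, called 43 of the 44 proteasome genes higher in the number 2 libraries, where it called 49.4% of all genes higher. It called 1 proteasome gene lower, where it called 24.4% of all genes lower. The core particle was called higher in 14 of 14 genes and the regulatory particle in 17 of 17. As the libraries of one number differed by little more than sampling noise, the test was sensitive, and it called 73.7% of all genes one way or the other. It compares libraries that carry technical replicate numbers and not a treatment, and nothing says that the libraries of one number came from separate cultures, so its p-values measure only a spread that may be technical. In the number 2 libraries, the summed Schwann cell markers were lower and the summed fibroblast markers higher, and their part in the result was not tested. In bulk RNA, fewer cells of a type and less RNA per cell cannot be told apart.

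The sizes were modest and alike in the core and the regulatory particle. Over the 31 subunits of the 2 particles the ratio of number 2 to number 1 ran from 1.19 to 1.52, with log2 differences between 0.25 and 0.60 and no limma adjusted p above 0.000298. The median difference was 0.43 for the core genes and 0.42 for the regulatory genes, beside 0.10 for all genes tested. Among all genes, 37 of the 44 proteasome genes lay above the 75th percentile of the difference and 20 above the 90th. Still, 0 of the 44 changed 2-fold, where 0.372% of all genes were 2-fold higher and 0.726% 2-fold lower. In each passage taken alone, the median difference of the proteasome genes was 0.41. In both passages 43 of 44 proteasome genes were higher, where 59.3% of all genes tested were higher in both.

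**Figure D3:**
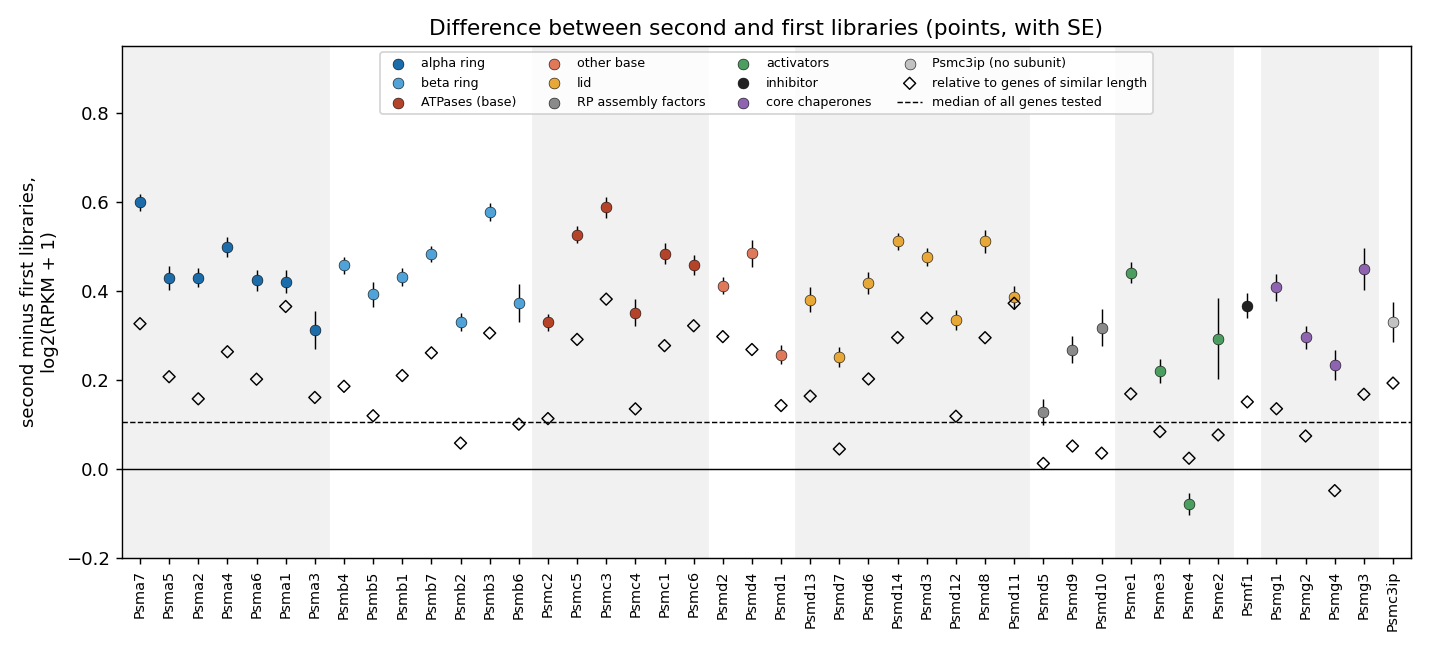
Difference between the number 2 (second) and number 1 (first) libraries on the log2(RPKM + 1) scale for the 44 proteasome genes, by role, as filled circles with the standard error from limma; open diamonds are the difference minus the median of genes of similar length, and the dashed line is the median of all genes tested, 0.10. All circles but Psme4 lie above the dashed line, and all diamonds but Psmg4 lie above 0.

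The 5 largest differences belonged to both particles. In the alpha ring, Psma7 rose from a mean of 182 RPKM to 277 RPKM, by 0.60 ± 0.02 on the log2 scale (SE, limma adjusted p = 2.5e-07). In the base, the ATPase Psmc3 was at 88.2, 135, 87.1 and 130 RPKM and rose by 0.59 ± 0.02 (adjusted p = 6.9e-07 by limma). Psmb3, of the beta ring, was at 54.1, 81.3, 53.9 and 80.8 RPKM and rose by 0.58 ± 0.02 (adjusted p = 3.8e-07 by limma). The groups did not overlap in any of these genes, and the libraries of one number were close to each other. The ATPase Psmc5 followed, at 90.7, 131, 90.9 and 131 RPKM, with a rise of 0.53. Psmd14, the lid enzyme that cuts off the ubiquitin chain, was at 66.8, 95.7, 66.7 and 95.4 RPKM and rose by 0.51, as did Psmd8, another lid subunit, at 42.2, 62.1, 43.6 and 61.0 RPKM. The catalytic subunits lay lower in the order, with 0.48 for Psmb7, 0.39 for Psmb5 and 0.37 for Psmb6.

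The smallest rises were found outside the core and regulatory particles, and in a few subunits. Psmd5, the base chaperone, rose by 0.13 ± 0.03 (limma adjusted p = 0.00527), and Psme3 by 0.22. Psmg4, a chaperone of core assembly at 17.9, 21.9, 18.2 and 20.9 RPKM, rose by 0.23. Psmd7, a structural partner of Psmd14 in the lid, rose by 0.25 and Psmd1 by 0.26. Psme4 fell by 0.08 on the log2 scale (limma adjusted p = 0.0215), and this call was lost when passage 9 number 1, passage 9 number 2 or passage 39 number 1 was left out, at adjusted p = 0.0595, 0.0664 and 0.0935. Psme2 rose by 0.29 ± 0.09 (limma adjusted p = 0.0203), with its few reads, and was not called without passage 9 number 1 (difference 0.18) or without passage 39 number 2 (0.20), at limma adjusted p = 0.0624 and 0.110, nor without a minimum on RPKM, at adjusted p = 0.106. Between the 2 groups of libraries, the values of every one of the 44 genes were apart: 43 had both number 2 libraries above both number 1 libraries, as had 57.2% of all genes tested, and Psme4 had both below, as had 30.5%.

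The 3 immunoproteasome subunits differed among themselves. Psmb9 rose by 0.16 ± 0.04 (limma adjusted p = 0.00377) and Psmb10 by 0.09 ± 0.03 (limma adjusted p = 0.0230), both below the smallest difference of the 31 subunits of the core and regulatory particles, 0.25. Psmb8, at a low level, was higher in both number 2 libraries, with a mean of 1.41 RPKM against 0.556 RPKM, a ratio of 2.53 and a difference of 0.63 on the log2(RPKM + 1) scale. Both values lie above those of each of the 31 subunits, but Psmb8 rested on 44, 91, 29 and 92 reads and was below the minimum for the test. The difference between the 2 kinds of subunit was not tested.

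RPKM values depend on what the rest of the library holds. The RPKM values of a library summed to 315847 and 315995 in the number 1 libraries and to 351061 and 348537 in the number 2 libraries. When every library was rescaled to a sum of 1000000, the median difference of all genes moved from 0.10 to -0.03, and the calls changed from 49.4% higher and 24.4% lower to 29.5% higher and 38.4% lower. Under this scaling the median of the proteasome genes was 0.27 and 41 of 44 were still called higher, with Psmd5, at -0.01, and Psme2, at 0.23, not called. Under median-ratio scaling the median was 0.32 for the proteasome genes and 0.03 for all genes, with 41 of 44 called higher, again without Psmd5 and Psme2, where 37.2% of all genes were called higher. Relative to the median of all genes, the proteasome genes were higher by 0.31, 0.29 and 0.29 under the 3 scalings. A rescaling multiplies all genes of a library by the same factor. Apart from the pseudocount, these 3 values therefore had to agree, and they do not test the scaling. As a share of summed RPKM, the 46 genes took 0.954% and 0.958% in the number 1 libraries and 1.16% in both number 2 libraries, a ratio of 1.22 at passage 9 and 1.21 at passage 39. As a share of reads, they took 0.433% and 0.434% against 0.574% and 0.571%.

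Gene length went with the difference across all genes, and many proteasome genes are short. The Spearman rho between recovered length and the number difference was -0.42 across 11024 genes, which share the 4 libraries and are not independent, and -0.22 across the 44 proteasome genes. The median recovered length was 1348 bases for the proteasome genes and 2622 bases for all genes. The recovered lengths are the smallest that fit the values, and a factor common to the 4 libraries could be hidden in them. In genes under 1000 bases the median difference was 0.43 for 14 proteasome genes and 0.27 for all genes. From 1000 to under 2000 bases it was 0.42 for 19 proteasome genes and 0.21 for all genes, and from 2000 to under 4000 bases it was 0.33 for 9 and 0.12 for all. At 4000 bases and over, where all genes had a median of -0.07, the 2 proteasome genes parted: Psmd11, at 5340 bases, rose by 0.39 and Psme4, at 7300 bases, fell by 0.08.

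When each difference was set against the median for its length, in 20 bins, the limma test called 36 of 44 proteasome genes higher, where it called 31.2% of 11024 genes higher, and none lower, where it called 33.1% lower. Psmg4 was the only proteasome gene below 0 on this scale, at -0.05 (limma adjusted p = 0.225). Psme2 was not called on this scale (limma adjusted p = 0.491). The core kept 13 of 14 calls and the regulatory particle 16 of 17, without Psmb6 and Psmd7. Of the base chaperones, Psmd5, Psmd9 and Psmd10, none was called on this scale, with differences of 0.01, 0.05 and 0.03 and limma adjusted p of 0.750, 0.176 and 0.488. The median difference relative to length was 0.20 for the core and 0.28 for the regulatory particle. The longer subunits Psmc3, Psmd11 and Psma1 stood highest on this scale, at 0.38, 0.37 and 0.36, while Psma7 was at 0.33. Psme4 lay at 0.02 and Psmb9 at -0.06, and neither was called. Psmb10 was called lower, at -0.13 (limma adjusted p = 0.00469). What else goes with length in these libraries, such as RNA quality or size selection, was not tested.

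**Figure D4:**
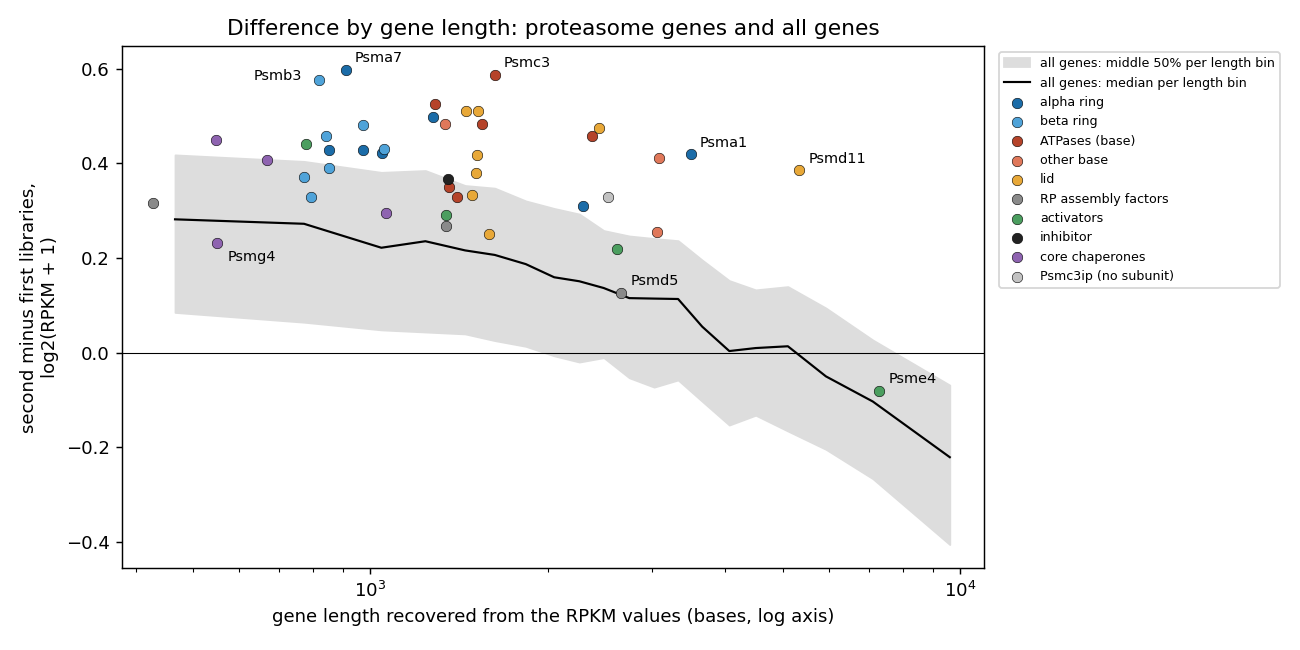
Number 2 (second) minus number 1 (first) difference on the log2(RPKM + 1) scale against recovered gene length in bases on a log axis, for the 44 proteasome genes as points coloured by role; the line is the median of all genes in each of 20 length bins and the band holds their middle 50%. The line falls from 0.28 in short genes to -0.22 in the longest, and 43 of 44 points, all but Psmg4, lie above the median of their bin.

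Between the passages, the proteasome genes differed little. Averaged over the 2 libraries of a passage, 0 of the 44 genes differed 2-fold, where 1 of 11025 genes, 0.00907%, did. The median difference of passage 39 minus passage 9 was -0.0029 on the log2 scale for the core genes and -0.0041 for the regulatory genes, beside -0.0018 for all genes tested. In none of the 44 genes did the passages separate, that is, with both libraries of one passage above both of the other, which held for 3.1% of all genes upward and 3.11% downward. With the numbers apart in all 44 genes, and 1 library of each number in each passage, the passages could not separate. The count of 0 is thus no measure of the passage difference. The difference was within 0.1 in 43 of 44 genes, and positive in 20. In 44 of 44 genes it was smaller in size than the difference between the numbers, which also follows from the numbers being apart in all 44.

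The exception to the range of 0.1 was Psme2, at 0.21, which had the fewest reads of the 44 genes. It was higher at passage 39 within both numbers, with 2.59 against 2.05 RPKM in number 1 and 3.32 against 2.80 RPKM in number 2, and the exact 95% counting intervals overlapped within each number, at 2.14 to 3.10 against 1.69 to 2.46 and at 2.85 to 3.83 against 2.34 to 3.32 RPKM. Next in order were the base chaperone Psmd10, at 0.08, and the ubiquitin receptor Psmd4, at 78.5, 113, 83.6 and 115 RPKM and 0.06. The most negative were Psmg3 at -0.10, Psma3 at -0.07 and Psmb6 at -0.05. None of these genes separated the passages, as none could once the numbers were apart. Without a second population per passage, none of the differences has a replicate check. Taken within each number, the median passage difference of the core genes was 0.01 in number 1 and -0.02 in number 2.

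**Figure D5:**
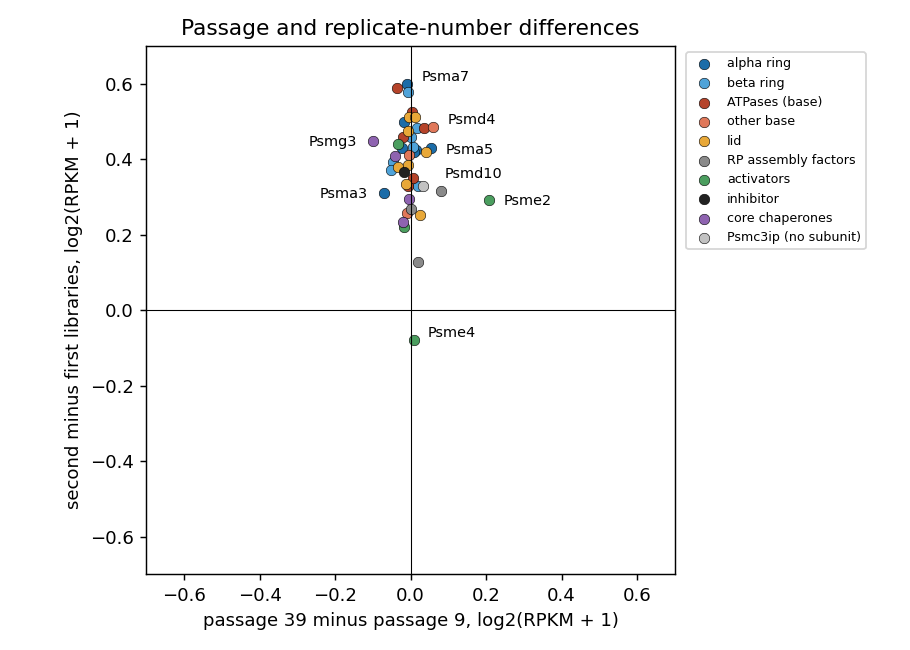
Passage 39 minus passage 9 difference (horizontal) and number 2 (second) minus number 1 (first) difference (vertical), both on the log2(RPKM + 1) scale and to the same scale, for the 44 proteasome genes coloured by role. The points form an upright column near 0 on the horizontal axis, with Psme2 at 0.21 to the right and Psme4 below the horizontal line.

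Of 27 related genes in the list (regulators, shuttles, deubiquitinases, ubiquitin genes and the unmatched subunits), 25 were listed under the symbols used and 24 had a mean of at least 1 RPKM. The limma test called 18 of the 24 higher in the number 2 libraries and left 6 uncalled, with a median difference of 0.18, beside 49.4% called higher and a median of 0.10 over all genes. Relative to genes of similar length, it called 12 of the 24 higher and 3 lower (Ngly1, Akirin2 and Ubb), beside 31.2% and 33.1% of all genes. The 2 genes with negative differences, Sel1l and Uba6, were not called (limma adjusted p = 0.108 and 0.264). Adrm1, a ubiquitin receptor of the regulatory particle, moved as its subunits did, at 56.5, 84.7, 54.9 and 80.7 RPKM and with a rise of 0.56, and Shfm1, a small lid subunit, rose by 0.34. Usp14 and Uchl5, deubiquitinases that dock on the particle, rose by less, 0.13 and 0.21. Vcp, the ATPase that pulls ubiquitinated proteins out of complexes, rose by 0.32. Nfe2l1 was at 32.2, 38.7, 32.8 and 39.1 RPKM and rose by 0.25 ± 0.02 (limma adjusted p = 4.8e-05). Nfe2l2, its relative, was at 17.6, 18.6, 18.2 and 19.0 RPKM, a difference of 0.07 that was not called (limma adjusted p = 0.0871). The ubiquitin gene Ubb, at 537, 537, 526 and 531 RPKM, differed by 0.01 and was not called (limma adjusted p = 0.726). Pomp, a maturation factor of the core, was listed at 0 in 3 libraries and at 0.0547 RPKM in passage 39 number 2, and RefSeq names 2 pseudogenes of it.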

How the data were processed

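Poly(A) RNA of 2 unmodified S16 populations was measured by RNA-Seq, with 2 libraries each. The study's methods state that the technical replicates were pooled and sequenced over 2 lanes. According to the study's methods, the authors used TruSeq kits and 50-base single-end reads, aligned them to the rat genome (rn5) with STAR and used HTSeq, unstranded, to count the reads that mapped to 1 place. The submitters' processing notes also name FastQC. The authors deposited RPKM values, 1 per symbol and library. The file names point to RefSeq gene models and the methods to Ensembl, and the gene lengths behind the values are not given in the sources used here. Overlapping genes and near-identical copies are therefore uncertain.

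Library totals, gene lengths and whole reads were recovered from ratios of the RPKM values, for 18114 of 18114 genes above 0 in at least 2 libraries. They were used for depth, length, chi-square and counting intervals, which are exact, at the 95% level, and cover counting error only. The recovered totals are higher than the number of reads per cell line stated in the study's methods, for a reason not known here. At these totals, 3 reads of a gene of 1000 bases correspond to 0.0725 to 0.0876 RPKM. Differences were taken on log2(RPKM + 1), which understates changes of low genes, over genes whose mean reached 1 RPKM. The libraries of one number were tested against those of the other, both passages together, with limma 3.58.1 in R 4.3.3 (moderated test with trend, two-sided, Benjamini-Hochberg). Passages were compared without a test. All tests were run over the whole table, and the scripts were tested on simulated data, with scipy 1.17.1, pandas 2.3.3 and numpy 2.4.6 under Python 3.11.15.

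The genes named are the catalytic subunits, the highest and lowest of each list, the largest differences and the immunoproteasome genes; further genes are named as examples of their list. 1 gene of the marker lists is not reported here. The proteasome genes, the gene lists and the markers were chosen with earlier results of these data known. Promoter sequences are from RefSeq on GRCr8, and no coordinates were converted. Other scalings, pseudocounts, minimums, a length correction, a passage block and each library left out were tried as alternatives.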

Additional observations from a re-analysis of the deposited data

Results flagged for a closer look

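Psma8, a core subunit gene known from testis, was above 0 in 1 library, passage 9 number 1, at 0.0263 RPKM, and was listed at 0 in the others, so that the gap took up the whole range, a value of 1 for the gap over the range. This was 1 of 49 genes examined for a library standing apart in this way, and chance alone flags about 1 group in 20. That rate does not hold for a gene above 0 in only 1 library, whose value is always 1. Its length and reads could not be recovered from a single value, and no difference can be read from it.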

How the results depend on the processing

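The count of proteasome genes called between the numbers was 36 to 44 under every alternative run, and of those higher 36 to 43. Among the 44 genes, 3 changed sign in 1 alternative each: Psmd5 went to -0.0144 with a common sum of 1000000, and Psme4 to 0.0233 and Psmg4 to -0.0496 relative to genes of similar length. None of these 3 values was called by limma. The median difference between the numbers was 0.285, 0.340 and 0.204 for the core (as deposited 0.429) and 0.275, 0.329 and 0.276 for the regulatory particle (as deposited 0.418) with a common sum, with median-ratio scaling and relative to length. With 1 library left out it ran from 0.431 to 0.444 for the core and from 0.406 to 0.444 for the regulatory particle. The count of proteasome genes called lower, 1, went to 0 relative to length and ran from 0 to 1 with 1 library left out.

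The passage medians stayed near 0 except when 1 library was left out, which leaves one passage with a single number: they then ran from -0.223 to 0.235 for the core and from -0.205 to 0.220 for the regulatory particle, negative without passage 9 number 1 or passage 39 number 2 and positive without passage 9 number 2 or passage 39 number 1. The regulatory median was 0.000711 with a common sum and -0.000617 with median-ratio scaling, against -0.00411. With the replicate number as a replicate block it was 0.00124 in the number 2 libraries. The 1 gene with a 2-fold passage difference became 2 with a common sum, 4 when the pseudocount was 0.1 RPKM, 0 when the minimum was 5 RPKM and 0 under the replicate block, and 13 to 17 with 1 library left out. Same-numbered libraries deviated together from their passage means (r = 0.943 across 11025 genes and 0.904 across the 44 proteasome genes), a hint from the data and not from the design. The passage as a block in the limma test changed the total of 8127 calls to 8170 and no call of a proteasome gene. The ratio of regulatory to core medians was 0.728 with means. The cause of these shifts was not tested. The planned edgeR test was not run, as the deposited values are RPKM and not counts; limma-voom on the recovered reads, chosen after seeing the data, called 8475 genes, 43 proteasome genes higher and 1 lower. Psme2, with 114 to 183 reads, was the gene most limited by depth.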
